A study of Mus musculus with 19 samples.

Results

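The livers described here came from mice exposed to 25 mg/kg of the polycyclic aromatic hydrocarbon dibenz[a,h]anthracene and were set against livers of control mice at 0 mg/kg. The members were chosen by the dose on the sample labels, which gave 10 of the 19 arrays in the series, 5 at 25 mg/kg and 5 at 0 mg/kg. All mice in both groups were males of the transgenic strain 40.6, were 10 weeks old, and had part of the liver taken 3 days after exposure. Both groups therefore carried the same transgene. The vehicle, route, dosing schedule and time of day of sampling were not given in the sources used here. Each array held liver RNA of 1 animal in red and, in green, a commercial reference RNA made from 11 cell lines of the mouse. A value is the log2 ratio of liver over this reference, and a change is the difference in that log2 ratio, 25 mg/kg minus control livers, given with its standard error (SE). The other arrays held livers at 6.25 mg/kg (5) and 12.5 mg/kg (4).

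Polycyclic aromatic hydrocarbons bind the aryl hydrocarbon receptor (AhR), a ligand-activated transcription factor that pairs with Arnt and switches on enzymes of xenobiotic metabolism at DNA carrying the core letters GCGTG. Those enzymes make the compounds more soluble, and some of the oxidised products bind DNA, to which cells answer through the transcription factor p53. Liver also sets much of its metabolism by the time of day, through E-boxes (CACGTG) read by the clock activators and D-boxes (TTATGTAA) read by Dbp and its relatives. The description below covers all measured genes, with most of the space given to genes outside the clock and p53 lists.

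Arrays lay on 3 slides, and a term for slide was part of the fit, so each value per array below is the log2 ratio with the slide term removed. Slide 1 held 1 array at 25 mg/kg and 2 controls and was scanned 7 days after the others, slide 2 held 2 of each, and slide 3 held 2 at 25 mg/kg and 1 control. Liver signal stood well above background at 39.7 to 56.3% of spots at 25 mg/kg and at 36.5 to 56.7% in controls. All 22 hepatocyte markers were above background on all 10 arrays and above the cell line reference, with mean log2 ratios of 4.84 to 10.9 at 25 mg/kg and 4.81 to 11.3 in controls. The number of arrays limits the precision, and the median SE of a log2 change was 0.105.

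At 25 mg/kg the livers had higher transcripts of Por, which passes electrons to cytochrome P450 enzymes, of Upp2, a liver uridine phosphorylase, and of Fmo1 and Fmo2, flavin monooxygenases that oxidise nitrogen and sulphur in drugs and food components. They had lower transcripts of Insig2, which holds the sterol sensor Scap in the endoplasmic reticulum, of Clpx, the unfoldase of a mitochondrial protease, and of Chka, a choline kinase. Of 13812 genes, each read by its brightest probe, 138 passed at an adjusted p under 0.05 in limma (0.999%), 84 higher (0.608%) and 54 lower (0.391%). Across probes 240 of 29415 passed (0.816%), 143 higher (0.486%) and 97 lower (0.330%), and 70 of the 240 have no gene symbol here. Changes of 2-fold or more were found in 24 genes that rose and 13 that fell, and the median size over the 138 was 0.72 on the log2 scale. All 138 genes had the same sign on each of the 3 slides. The values of 25 mg/kg and control arrays did not overlap for 132 of the 138, where such separation was found for 6.00% of all genes. The 138 were selected by a small p on these same arrays, so agreement between slides and separation largely follow from the choice.

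These counts depended on the slide term and on single animals. Without the slide term 17 probes and 7 genes passed, and all 17 probes were among the 240 with the same sign. Leaving out 1 array at a time gave 16 to 159 genes, with 23, 45 and 36 genes when replicate 1, 3 or 4 at 25 mg/kg was left out. The count was 16, 84, 30 and 88 genes without control replicate 1, 2, 4 or 5. All 138 genes kept their sign in each of these fits. The fits share most or all arrays with the one that selected the genes, so this is not a separate check. Control replicate 1 is the only control on slide 3.

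**Figure D1:**
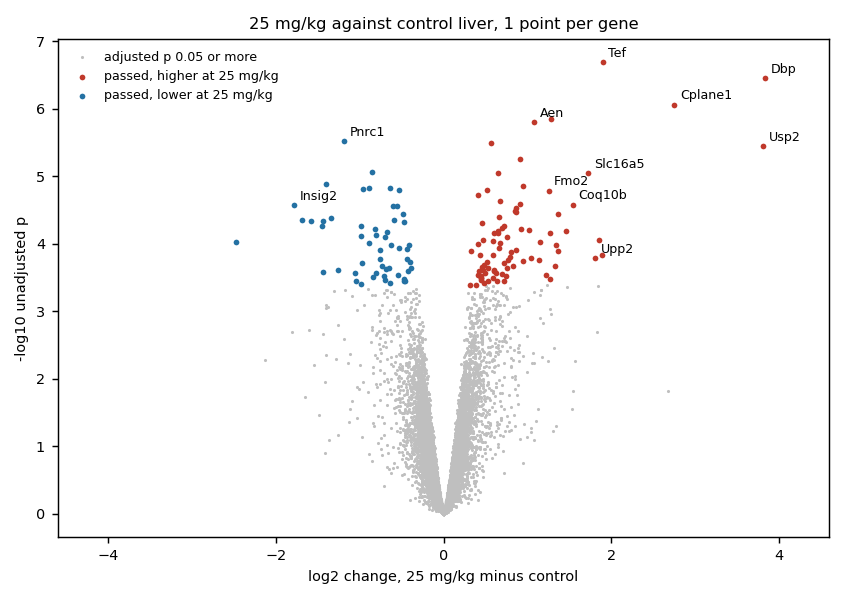
Each point is a gene, with the log2 change of 25 mg/kg minus control livers on the x axis and −log10 of the unadjusted limma p on the y axis. The 84 genes that rose (red) and the 54 that fell (blue) stand above the other genes tested, with Dbp and Usp2 farthest to the right and Insig2 among the larger falls.

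Por had log2 ratios of 2.02, 1.15, 1.25, 2.62 and 0.81 in the 25 mg/kg livers, against -0.57, -0.34, 0.18, -0.71 and -0.15 in control livers. The groups did not overlap, and the slide 1 animal was the lowest of the treated 5. The rise was 1.89 ± 0.39 (SE, adjusted p = 0.0346), or 3.70-fold, and it measured 1.24, 2.01 and 2.15 within slides 1, 2 and 3. Without the slide term it was 1.81 with an adjusted p of 0.101, and Por passed in 13 of 23 alternative fits. In the list of 60 Cyp2, Cyp3 and Cyp4 enzymes with their reductase, Por was the single member that passed. That is 1.67%, against 0.999% of all genes, and the list median was 0.04.

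Upp2, which splits uridine into uracil and a sugar phosphate, had values of 7.46, 7.47, 7.76, 7.44 and 6.58 at 25 mg/kg and of 4.97, 5.51, 6.16, 5.58 and 5.45 in controls. The lowest treated liver stood above the highest control liver. Its rise was 1.81 ± 0.38 (adjusted p = 0.0359), and another probe gave 1.65 (adjusted p = 0.0426). Upp2 passed in 12 of 23 alternative fits, and with Feature Extraction processed signals its change was 0.63 (adjusted p = 0.546). Coq10b, a mitochondrial protein that binds coenzyme Q, had 2.39, 1.69, 1.98, 2.57 and 1.80 at 25 mg/kg and 0.79, 0.85, 0.71, 0.18 and 0.21 in controls. The rise was 1.54 ± 0.28 (adjusted p = 0.0194) and was close in size on all slides, at 1.60, 1.5 and 1.25. Another Coq10b probe gave 1.22 and did not pass (adjusted p = 0.0704). Pex26, which anchors the export machinery of peroxisomes, rose by 1.33 ± 0.27 (adjusted p = 0.0297). Nmrk1, a kinase that makes a precursor of NAD from nicotinamide riboside, rose by 1.32 ± 0.29 (adjusted p = 0.0394). Nmrk1 passed in 11 of 23 alternative fits.

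Slc16a5, of the monocarboxylate transporter family, had 2.15, 1.29, 2.16, 2.50 and 1.11 at 25 mg/kg and 0.49, 0.09, -0.03, 0.08 and -0.04 in controls, with no overlap. It rose by 1.73 ± 0.28 (adjusted p = 0.0127), but a dimmer probe of the gene, above background on 2 treated and 1 control arrays, gave 0.19 (adjusted p = 0.542). Slc43a1, which carries large neutral amino acids, rose by 1.27 ± 0.24 (adjusted p = 0.0252). That fit lacks the value of control replicate 2, an outlier spot, and in the liver channel alone the change was 0.56 (adjusted p = 0.194). Atp8b5, a lipid flippase best known from testis, rose by 1.37 ± 0.28 (adjusted p = 0.0325), with 0.43, 1.27 and 2.53 within the slides. Its other probe, above background on 1 treated and 2 control arrays, gave 0.10 (adjusted p = 0.689). In the list of 33 ABC and solute carriers Slc16a5 was the single member that passed (3.03%, against 0.999% of all genes). Slc13a2, a dicarboxylate carrier outside that list and named after its values were seen, changed the other way, by -1.26 ± 0.27 (adjusted p = 0.0412), in a fit that lacks an outlier spot of replicate 4 at 25 mg/kg.

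Cplane1, a gene of cilium formation, had 1.43, 1.21, 1.60, -0.29 and 0.97 at 25 mg/kg and -2.32, -1.41, -1.43, -1.87 and -1.82 in controls. It rose by 2.75 ± 0.38 (adjusted p = 0.00428) on its brightest probe. Its other probes gave 1.45 (adjusted p = 0.0421) and 0.05 (adjusted p = 0.908), so the probes of this gene disagree. Pcsk4, a proprotein convertase best known from germ cells, rose by 1.36 ± 0.25 (adjusted p = 0.0218). The noncoding transcript 1700001L05Rik rose by 1.15 ± 0.23 (adjusted p = 0.029), and another of its probes gave 0.46 (adjusted p = 0.145). Pcp4l1 rose by 1.04 ± 0.22 (adjusted p = 0.0356) and passed in 11 of 23 alternative fits.

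**Figure D2:**
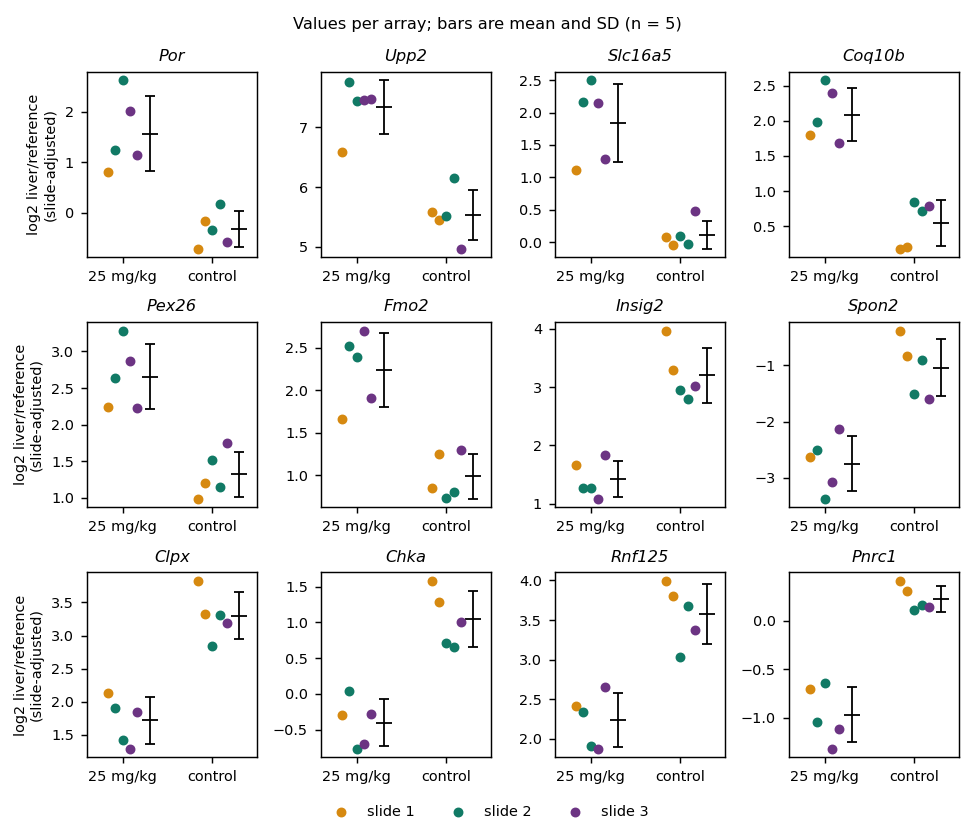
Each panel is a gene, with its log2 liver over reference ratio per array after the slide term was removed, 25 mg/kg left and control right, coloured by slide, beside the mean and SD (n = 5). In each of the 12 panels the treated points lie wholly above or wholly below the control points. These genes were chosen for passing on the same arrays.

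Insig2 had the largest fall outside the clock list. It had 1.08, 1.84, 1.26, 1.26 and 1.66 in the 25 mg/kg livers and 3.01, 2.94, 2.79, 3.97 and 3.28 in control livers, with a gap between the groups. The change was -1.78 ± 0.32 (adjusted p = 0.0194), or 3.43-fold lower, and a further probe gave -2.16 (adjusted p = 0.0131). In the list of 27 cholesterol synthesis genes it was the single member that passed (3.70%), and 22 members were lower and 5 higher, with a median of -0.21. Over all 13812 genes 0.999% passed, with 7083 lower and 6729 higher. Hmgcs1, which makes the precursor of mevalonate, had -0.79 (adjusted p = 0.203), and Sc5d, a late enzyme of the route, had -0.36 (adjusted p = 0.175). The list medians within the slides were -0.47, 0.05 and -0.21, so slide 2 did not share the sign.

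Clpx had 1.29, 1.85, 1.91, 1.43 and 2.13 at 25 mg/kg and 3.18, 2.84, 3.32, 3.83 and 3.32 in controls, and its change of -1.58 ± 0.30 (adjusted p = 0.0239) was nearly even across slides at -1.45, -1.41 and -1.62. Chka, which starts phosphatidylcholine synthesis, had -0.70, -0.28, 0.04, -0.77 and -0.30 at 25 mg/kg and 1.0, 0.71, 0.65, 1.58 and 1.28 in controls. Its change was -1.45 ± 0.28 (adjusted p = 0.0248), and both further probes passed with -1.81 and -1.40. Chka was the single member of 21 phospholipid synthesis genes to pass (4.76%, against 0.999% of all genes). Selenoi, which makes phosphatidylethanolamine, had -0.52 (adjusted p = 0.0601). Crot, a peroxisomal enzyme that moves medium-chain acyl groups to carnitine, fell by 0.99 on the log2 scale (SE 0.23, adjusted p = 0.0492). It passed in 7 of 23 alternative fits.

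Spon2, a secreted matrix protein, had -3.07, -2.14, -2.51, -3.37 and -2.63 at 25 mg/kg and -1.60, -1.51, -0.91, -0.39 and -0.84 in controls, a change of -1.69 ± 0.32 (adjusted p = 0.0239). Pnrc1, a coactivator of nuclear receptors, was among the steadiest, with -1.32, -1.11, -1.04, -0.64 and -0.70 at 25 mg/kg and 0.14, 0.11, 0.16, 0.41 and 0.30 in controls. It changed by -1.19 ± 0.18 (adjusted p = 0.00878) and passed in 22 of 23 alternative fits, the exception being the one with no slide term (adjusted p = 0.322). Lgalsl, a galectin-like protein, changed by -1.44 ± 0.32 (adjusted p = 0.0418). The ubiquitin ligases Rnf125 and Dtx4 changed by -1.34 ± 0.25 (adjusted p = 0.0236) and -1.05 ± 0.24 (adjusted p = 0.0466). Dtx4 passed in 9 of 23 alternative fits, Lgalsl in 10 and Rnf125 in 17. Avpr1a, the vasopressin receptor of pericentral hepatocytes, changed by -1.06 ± 0.24 (adjusted p = 0.0421) and passed in 10 of 23 alternative fits. It was the single one of 24 pericentral genes to pass (4.17%, against 0.999% of all genes). Arsg, a lysosomal sulphatase, changed by -0.98 ± 0.19 (adjusted p = 0.0262). It was the single gene of these 27 whose groups touched, since replicate 3 at 25 mg/kg had 1.27 and control replicate 3 had 1.25. Tspyl4, of the nucleosome assembly family, changed by -0.96 ± 0.16 (adjusted p = 0.0151), and by -1.55 with processed signals (adjusted p = 0.102).

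**Figure D3:**
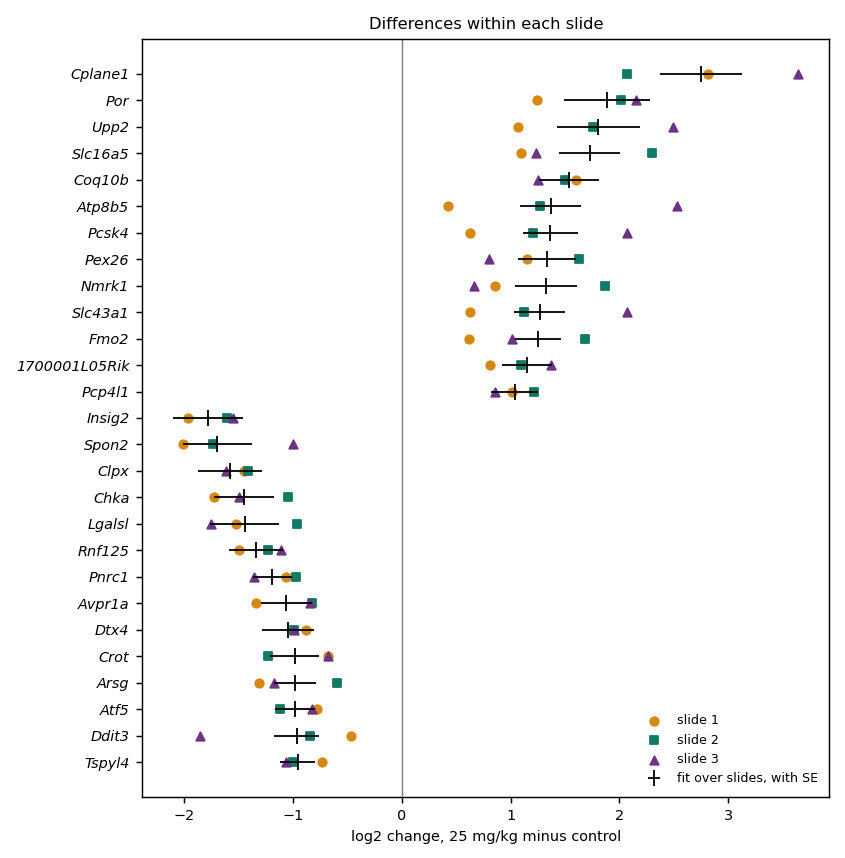
The log2 change of 25 mg/kg minus control livers is shown for 13 of the largest rises and 14 of the largest falls, with symbols for the difference within each slide and a black bar for the fit with its SE. All 27 genes have the same sign on every slide, while sizes differ, as for Atp8b5 (0.43, 1.27 and 2.53) and Ddit3 (-0.47, -0.84 and -1.86). These genes were chosen for passing on the same arrays.

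Of 93 other genes that passed outside the clock and p53 lists, 57 rose, by 0.32 to 1.01 with a median of 0.60, and 36 fell, between -1.26 and -0.39 with a median of -0.63. Further kept probes existed for 58 of the 157 genes with any probe that passed, the brightest or another. Of these 74 probes 68 had the sign of the brightest probe and 32 passed. Some of these genes entered the count only because a further probe passed, so these passes partly follow from the choice. Ppard, a nuclear receptor for fatty acids, changed by -0.89 ± 0.15 (adjusted p = 0.0151), and Esrra, an orphan receptor that drives mitochondrial genes, by 0.65 ± 0.13 (adjusted p = 0.0252). They were the members that passed among 39 nuclear receptors (5.13%, against 0.999% of all genes). Klf13, a zinc finger factor, rose by 0.91 ± 0.16 (adjusted p = 0.0194), alone among 15 Klf genes (6.67%).

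Promoters of the genes that passed were searched for the AhR core, the E-box and the D-box, since these letters tie the compound class and the clock to DNA. The windows ran from 250 bases before to 50 bases after each start in the RefSeq promoter table (build GRCm38.p6), and both strands were read. The table held 62 of the 84 genes that rose and 44 of the 54 that fell. GCGTG stood in 51.2% of promoters of genes that rose and in 51.7% of those that fell, against 46.7% of promoters of all genes tested. CACGTG stood in 13 of 80 promoters of genes that rose (16.2%) and in 2 of 58 of genes that fell (3.45%), against 9.39% of promoters of genes tested and 7.15% of all promoters. Tef, of the clock list, gave more than 1 of these 13 promoters. TTATGTAA stood in 2 of 80 promoters of genes that rose (2.50%), those of Coq10b and Per3. It stood in 0% of promoters of genes that fell and in 0.676% of those of genes tested. A match describes letters, not a bound site. Coq10b held all 3 motifs, Slc43a1 an E-box and 1700001L05Rik 2 E-boxes. Por and Clpx are shown because they are a large rise and a large fall that hold the AhR core on the reverse strand as CACGC. The 200 bases before each start are given on the strand of the gene, with every match in capitals (capitals that overlap the window's edge belong to a match beginning outside it).
Coq10b (chr1:55052570-55052769, plus strand): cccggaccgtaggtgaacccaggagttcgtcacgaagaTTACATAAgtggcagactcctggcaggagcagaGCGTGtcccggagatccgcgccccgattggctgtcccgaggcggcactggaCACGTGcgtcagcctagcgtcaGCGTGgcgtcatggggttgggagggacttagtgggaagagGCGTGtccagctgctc
Slc43a1 (chr2:84840123-84840322, plus strand): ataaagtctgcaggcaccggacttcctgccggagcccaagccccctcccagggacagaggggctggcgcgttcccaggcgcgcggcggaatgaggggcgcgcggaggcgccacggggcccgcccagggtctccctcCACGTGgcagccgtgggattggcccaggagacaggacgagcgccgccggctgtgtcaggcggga
1700001L05Rik (chr15:83367298-83367497, minus strand): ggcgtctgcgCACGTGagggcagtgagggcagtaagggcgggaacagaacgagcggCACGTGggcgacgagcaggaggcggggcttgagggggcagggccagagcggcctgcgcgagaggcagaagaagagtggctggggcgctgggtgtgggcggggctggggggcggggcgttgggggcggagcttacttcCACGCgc
Por (chr5:135688945-135689144, plus strand): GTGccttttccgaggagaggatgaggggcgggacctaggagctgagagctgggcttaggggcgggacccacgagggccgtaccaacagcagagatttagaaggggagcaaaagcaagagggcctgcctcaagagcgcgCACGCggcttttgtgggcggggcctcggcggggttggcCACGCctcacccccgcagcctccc
Clpx (chr9:65294060-65294259, plus strand): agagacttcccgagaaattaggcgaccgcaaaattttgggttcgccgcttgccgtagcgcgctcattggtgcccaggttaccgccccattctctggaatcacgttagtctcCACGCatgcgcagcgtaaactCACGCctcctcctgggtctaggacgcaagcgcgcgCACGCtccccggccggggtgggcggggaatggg

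Of the flavin monooxygenases Fmo1, Fmo2, Fmo4 and Fmo5, all 4 were higher and 2 passed, where 0.999% of all genes passed. Their median was 0.53, with medians within the slides of 0.20, 0.79 and 0.78. Fmo2 had 2.70, 1.91, 2.52, 2.40 and 1.66 at 25 mg/kg and 1.29, 0.74, 0.80, 0.84 and 1.25 in controls, and rose by 1.25 ± 0.22 (adjusted p = 0.0151). Fmo1, an abundant form in mouse liver, had 5.54, 5.53, 5.55, 6.08 and 5.14 at 25 mg/kg and 4.55, 4.81, 4.59, 4.76 and 4.88 in controls. It rose by 0.85 ± 0.15 (adjusted p = 0.0211), with the smallest difference on slide 1 (0.32). Another Fmo1 probe gave 0.87 and did not pass (adjusted p = 0.0872). Fmo4 and Fmo5 had 0.09 (adjusted p = 0.886) and 0.22 (adjusted p = 0.593). Fmo4, Fmo1 and Fmo2 follow one another on chromosome 1 in the RefSeq table. Signal shared between probes of these related genes was not tested.

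Targets of AhR are the genes by which this compound class is best known. Among 21 measured members of the AhR list described here Fmo2 passed (4.76%, against 0.999% of all genes), and the median was 0.05. Cyp1a1, the classical AhR-induced P450, and Ahrr, the AhR repressor, were well above background on none of the 10 arrays, so no change was measured for them. Cyp1a2, the P450 that liver makes without inducer, had 5.43, 5.33, 5.19, 5.48 and 5.37 at 25 mg/kg and 5.44, 5.55, 5.17, 5.42 and 5.21 in controls. The groups lay across one another, with a change of 0.00 ± 0.11 (adjusted p = 0.993). Cyp1b1, another P450 of the family, was above background on 2 arrays of each group and had -0.13 ± 0.11 (adjusted p = 0.654). Tiparp, an ADP-ribosyltransferase that dampens AhR, had -2.34, -2.39, -2.24, -2.23 and -2.56 at 25 mg/kg and -2.69, -2.77, -2.81, -2.78 and -2.73 in controls. These groups were apart, but the change of 0.40 ± 0.14 did not pass (adjusted p = 0.184). Nqo1, a quinone reductase shared by AhR and Nrf2, had 0.16 ± 0.12 (adjusted p = 0.579). None of 40 Nrf2 targets and none of 27 genes of glucuronidation and sulphation passed.

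Among 22 glutathione transferases Gstp2 alone passed (4.55%, against 0.999% of all genes). Gstp2 fell, with 4.02, 3.51, 3.74, 3.63 and 3.89 at 25 mg/kg and 4.52, 4.69, 4.85, 4.78 and 3.99 in controls. Control replicate 5 reached into the treated range, and the change was -0.81 ± 0.18 (adjusted p = 0.0421). Its other probe gave -0.74 (adjusted p = 0.0537). Gstp2 passed in 8 of 23 alternative fits, and its change was -0.33 (adjusted p = 0.11) in the liver channel alone. Gstp1, its near-identical neighbour, had -0.71 (adjusted p = 0.0551) on its brightest probe and -0.75 (adjusted p = 0.0369) on another, and signal shared between their probes cannot be told apart from either gene's own.

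Ddit3 and Atf5 were lower at 25 mg/kg. Ddit3, which encodes the stress factor CHOP, had -2.27, -2.36, -2.14, -2.12 and -1.95 at 25 mg/kg and -0.46, -0.81, -1.78, -1.26 and -1.72 in controls. Treated livers lay in a narrow range below a wide control range, and the change was -0.97 ± 0.21 (adjusted p = 0.0371). Ddit3 passed in 11 of 23 alternative fits. Atf5, a factor of the integrated stress response, had 1.17, 1.34, 1.51, 0.61 and 1.53 at 25 mg/kg and 2.08, 2.16, 2.19, 2.41 and 2.21 in controls, a change of -0.98 ± 0.19 (adjusted p = 0.0248). In the list of 33 genes of that response these 2 passed (6.06%, against 0.999% of all genes). In that list 26 members were lower and 7 higher with a median of -0.15, where 7083 of all 13812 genes were lower. Tars, a threonyl-tRNA synthetase, had -0.59 (adjusted p = 0.0555) and Mthfd2, a mitochondrial folate enzyme, -0.39 (adjusted p = 0.0659).

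Chaperones of the endoplasmic reticulum had the lowest median of the lists shown. Of 37 members 31 were lower and 6 higher, where 7083 of all 13812 genes were lower. The median was -0.36, and none passed. The medians within slides 1, 2 and 3 were 0.08, -0.22 and -0.78, and the last rests on control replicate 1 alone. With 1 array left out at a time the median ran from -0.43 to -0.22, and it was -0.22 without that control. Pdia4, a disulphide isomerase, had 0.04, -0.52 and -1.65 within the slides (adjusted p = 0.117), and Hsp90b1, the Hsp90 of the reticulum, had 0.28, -0.85 and -1.53 (adjusted p = 0.127). Xbp1, the splicing-regulated factor of this response, had 0.77 (adjusted p = 0.0735). None of 31 heat shock genes passed, and their medians of 0.10, 0.11 and -0.42 were also lowest on slide 3.

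Genes that are higher in female than in male liver of the mouse had 3 of 25 members that rose and none that fell. That is 12% passing, against 0.999% of all genes, and the median was 0.21. The members were Slc16a5, Fmo2 and Trim24, a coregulator of transcription that changed by 0.86 ± 0.18 (adjusted p = 0.0321). The medians within the slides were -0.14, 0.22 and 0.61. None of 32 male-biased genes passed, and their median was -0.10. In glucose and insulin genes 2 of 39 rose and none fell (5.13% passing, against 0.999% of all genes). They were Trib1, a pseudokinase that limits lipogenesis in liver (0.70 ± 0.13, adjusted p = 0.0248), and Slc37a4, the glucose 6-phosphate transporter (0.59 ± 0.13, adjusted p = 0.0444). Another Trib1 probe gave 0.47 (adjusted p = 0.0912), and Slc37a4 passed in 10 of 23 alternative fits. Pfkfb3, which makes the glycolytic activator fructose 2,6-bisphosphate, had 1.84 (adjusted p = 0.0507). Bnip3, a mitophagy receptor, and Uvrag, a Beclin partner, rose by 0.79 ± 0.17 (adjusted p = 0.0352) and 0.44 ± 0.09 (adjusted p = 0.0346) among 36 autophagy genes (5.56% passing). Pik3r1, the regulatory subunit of PI3-kinase, rose by 0.64 ± 0.15 (adjusted p = 0.0466), alone among 23 glucocorticoid-responsive genes (4.35%). Pik3r1 passed in 6 of 23 alternative fits. Ccnb1, a mitotic cyclin, was the single one of 47 cell cycle genes to pass (2.13%), with -0.59 ± 0.11 (adjusted p = 0.0239). Another Ccnb1 probe gave -0.17 (adjusted p = 0.434).

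No member passed in 24 of the 44 lists. Besides those already named these included 42 genes of DNA repair, 31 of lipogenesis, 40 targets of PPAR alpha, 27 of bile acid metabolism, 31 periportal and urea cycle genes, 45 of coagulation and complement, 32 of the acute phase, 40 interferon-stimulated genes and 42 of oxidative phosphorylation. A miss of the threshold does not show that these genes did not differ. Of the DNA repair genes Gadd45a had 0.87 (adjusted p = 0.0659) and Rev1, a translesion polymerase, 0.48 (adjusted p = 0.062). Of the PPAR alpha targets Pdk4, which shuts off pyruvate oxidation, had -1.40 (adjusted p = 0.0669) and Plin2, a lipid droplet coat protein, -0.61 (adjusted p = 0.0643).

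None of 94 markers of 7 other cell types passed. In bulk liver, fewer cells of a type and less RNA per cell cannot be told apart. Kupffer cell markers (18), of the resident macrophages of liver, had a median change of -0.07. The median level over the markers, taken per array, ran from 1.73 to 2.86 at 25 mg/kg and from 1.95 to 3.36 in controls. Lymphocyte and neutrophil markers (13) had a median change of -0.17, with median levels per array of -0.42 to -0.07 at 25 mg/kg and -0.30 to 0.18 in controls. Endothelial markers (19) had a median change of 0.15, with median levels per array of 2.06 to 2.44 at 25 mg/kg and 1.84 to 2.21 in controls. Cholangiocyte markers (10) had a median change of -0.11, with median levels per array of -0.63 to -0.29 at 25 mg/kg and -0.38 to -0.08 in controls. Their part in the changes above was not tested. Hepatocyte markers had a median of -0.05, against -0.0045 over all 13812 genes.

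**Figure D4:**
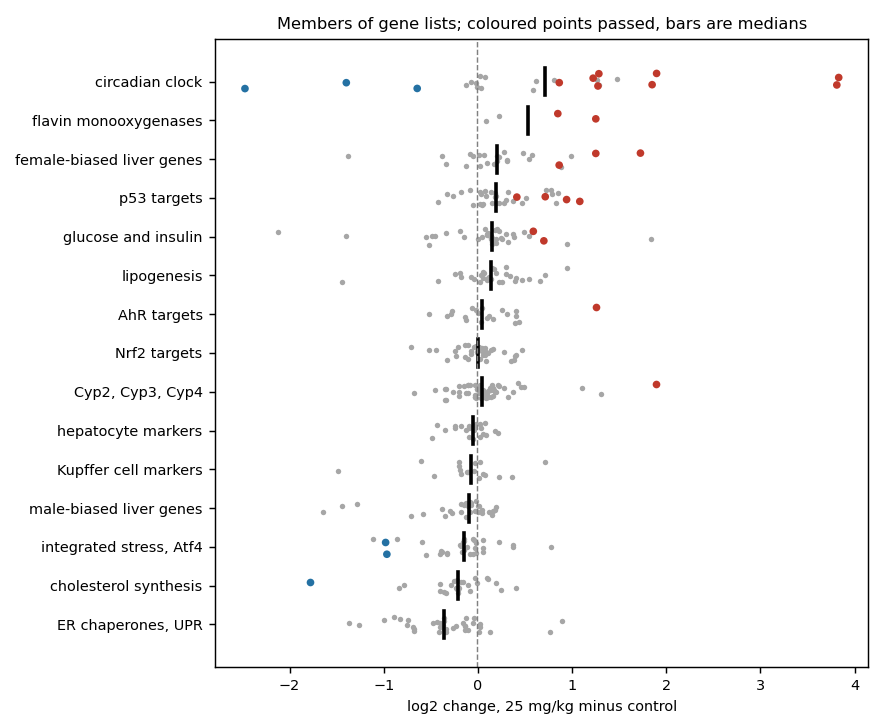
Each point is a measured member of a gene list, placed by its log2 change of 25 mg/kg minus control livers; members that passed are red (higher) or blue (lower), black bars are list medians and the dashed line is the median of all genes. Clock genes have the highest median (0.71) and endoplasmic reticulum chaperones the lowest (-0.36) of the 15 lists drawn, and for the chaperones no point passed.

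The clock and p53 lists are given in brief. Of 24 clock genes 8 rose and 3 fell (45.8%, against 0.999% of all genes), with a median of 0.71. Tef, Dbp, Nr1d2 and Usp2, the members of smallest p, rose by 1.90 ± 0.23, 3.83 ± 0.49, 1.28 ± 0.18 and 3.81 ± 0.58 (adjusted p = 0.0026, 0.0026, 0.00578 and 0.00878). Of 35 p53 targets 4 rose and none fell (11.4%), with a median of 0.19. Aen, a nuclease, and Ccng1, a cyclin, rose by 1.08 ± 0.15 (adjusted p = 0.00578) and 0.94 ± 0.16 (adjusted p = 0.0151). Zmat3, an RNA-binding protein, and Dglucy, a mitochondrial enzyme, rose by 0.41 ± 0.07 (adjusted p = 0.0164) and 0.72 ± 0.15 (adjusted p = 0.0371), and Zmat3 by 0.67 with processed signals (adjusted p = 0.0212). Another Dglucy probe gave 0.50 (adjusted p = 0.134), and Dglucy passed in 10 of 23 alternative fits.

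The lower doses were fitted together with 25 mg/kg and share its control arrays, so their values are set side by side and no overlap is counted. At 6.25 mg/kg no probe passed (0%), with 3447 at an unadjusted p under 0.05 (11.7%), and at 12.5 mg/kg 2 probes passed (0.00680%), both of Dbp. For Cplane1 the changes were 1.09 at 6.25, 2.39 at 12.5 and 2.75 at 25 mg/kg. For Upp2 they were 1.14, 1.19 and 1.81, for Insig2 -0.95, -1.16 and -1.78, and for Pnrc1 -0.79, -0.98 and -1.19. Fmo2 had 0.59, 0.39 and 1.25 and Tspyl4 -0.35, -0.34 and -0.96. Pcp4l1 had 1.18, 0.67 and 1.04, and Avpr1a -0.57, -1.25 and -1.06. None of these passed at 6.25 or 12.5 mg/kg.

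The highest dose was also set directly against each lower dose in the same fit. The control mean does not enter this difference, but control arrays still help set the slide terms and the spread. No probe passed for 25 against 12.5 mg/kg (0%) or for 25 against 6.25 mg/kg (0%) in limma, with 3255 (11.1%) and 1733 (5.89%) of 29415 probes at an unadjusted p under 0.05. Fmo2 differed by 0.87 ± 0.23 between 25 and 12.5 mg/kg (adjusted p = 0.16) and Slc16a5 by 0.88 ± 0.30 (adjusted p = 0.269). Cplane1 differed by 1.67 ± 0.37 between 25 and 6.25 mg/kg (adjusted p = 0.701).

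**Figure D5:**
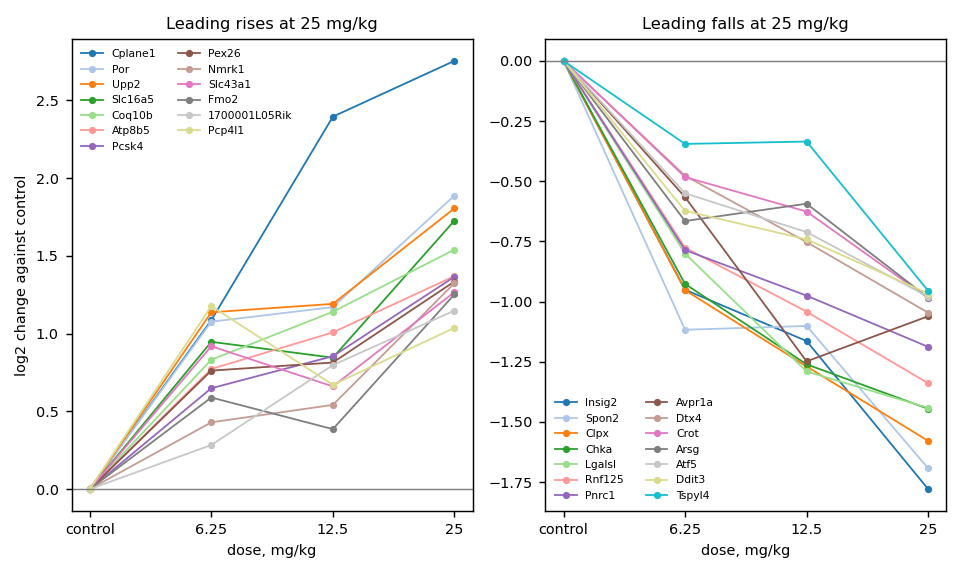
Lines join the log2 change against control at 6.25, 12.5 and 25 mg/kg (doses evenly spaced, control at 0) for 13 of the largest rises (left) and 14 of the largest falls (right) at 25 mg/kg, chosen at that dose. At 25 mg/kg the rises run from 1.04 to 2.75 and the falls from -1.78 to -0.96; the 3 comparisons share 5 control arrays, and SEs are left out of the drawing.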

How the data were processed

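Per the file headers, Feature Extraction 10.7.3.1 wrote the deposited scanner files, from which the linear red and green median intensity of spots and their local background were used. The deposited table holds log2 ratios of liver over reference, which correlated at 0.992 to 0.996 with those computed here; how the authors centred it is not given in the sources used here (column medians -0.0355 to -0.0217). RNA was extracted with TRIzol and RNeasy, and 200 ng per animal was labelled, per the labels' protocols.

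Signals were corrected with normexp (offset 50) and loess-normalised within arrays in limma 3.58.1 (R 4.3.3, statmod 1.5.0). Outlier spots were left out and spots of a probe averaged. Probes with over 0.5 of spots well above background in liver on at least 4 of 19 arrays were kept (29415 of 55681). Symbols came from a RefSeq table of GRCm38.p6. Group means were fitted with lmFit and eBayes over all 19 arrays with slide as a fixed block. Tests were two-sided and adjusted by Benjamini-Hochberg over all kept probes, and the method was tested on simulated data.

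The members and the 44 lists were chosen with earlier results of these data known. Genes named are the 15 largest rises and 15 largest falls outside the clock and p53 lists that passed with all 5 treated arrays above, or all below, the mean of controls, the 4 or fewer members with the lowest p in a list, defining cell type markers, and Cyp1a1, Cyp1a2, Cyp1b1, Ahrr, Tiparp and Nqo1; 3 of the genes so chosen are not reported here and were left out of the lists. Alternatives were no or random slide term, the 10 arrays alone, other background, normalisation, channel and filter settings, the deposited table, a robust prior, array weights, the mean of probes, a 1.5-fold limit and each array left out.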

Additional observations from a re-analysis of the deposited data

Results flagged for a closer look

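Among 51 named genes, 6 values stood apart from their group by more than Dixon's critical value of 0.71 for the gap as a share of the range. Chance flags about 1 in 20 groups, and 101 groups of 5 arrays with no missing value were looked at. Values are slide-adjusted log2 ratios. At 25 mg/kg, replicate 5 was low for Upp2 (6.58, with the nearest animal at 7.44) and for Slc43a1 (2.65, nearest 3.1). Replicate 4 at 25 mg/kg was low for Nr1d2 (1.20, nearest 1.54), and replicate 3 at 25 mg/kg was low for Cyp1b1 (-3.45, nearest -3.22). In controls, replicate 1 was high for Slc16a5 (0.49, nearest 0.09) and replicate 4 was high for Lgalsl (0.75, nearest 0.23). Leaving out each of these arrays kept the direction of Upp2, Slc43a1, Nr1d2, Slc16a5 and Lgalsl.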

How the results depend on the processing

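No paired analysis was possible because the replicate numbers follow accession order and pair no animals. The 240 probes and 138 genes became 17 and 7 without the slide term, 31 and 18 with Feature Extraction processed signals and 508 and 290 with array weights; the cause was not tested. Leaving out 1 array at a time gave 25 to 264 probes and 16 to 159 genes; the values for single arrays stand with the counts above. At 12.5 mg/kg 2 probes became 0 without the slide term. The share of higher probes was 59.6%, against 76.5% without the slide term and 80.6% with processed signals. The other alternatives gave 160 to 276 probes and 98 to 185 genes. All 138 genes kept their sign under each alternative that measured them (118 measured by the filter on all 19 arrays). They were selected on the same arrays, so kept signs are not a separate check. Of the 27 genes of largest change drawn by slide none turned its sign, 1 passed without the slide term, 3 with processed signals and 23 in the 10 arrays alone. Without replicate 1 or replicate 4 at 25 mg/kg 5 passed each time. Without control replicate 1 there were 5, without control replicate 4 there were 7, and without any other array 15 to 23. Cplane1 passed in all 23 alternatives. Of 44 list medians 12 moved by more than their spread between arrays, 7 of them without the slide term. Cyp1a2, near 0 throughout, turned to -0.17 without the slide term, -0.0273 with slide as a random block, -0.0101 in the 10 arrays alone, -0.029 with processed signals, -0.195 in the liver channel alone and -0.0143 with array weights, and it ran from -0.0507 to 0.0605 when single arrays were left out. Cyp1b1 turned to 0.0125 without the slide term and 0.0349 in the liver channel alone.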
